A study of Bos taurus with 15 samples.

Results

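APOA1 (ENSBTAG00000002258.3) and C8G (ENSBTAG00000052909.1) are 2 of the 21665 genes in a count table from bovine cells that were made to express PRD-class homeobox genes. Both encode secreted proteins of blood plasma, and they were chosen by their identifiers from the study's list of genes upregulated by wild-type (WT) ARGFX. The counts of the WT ARGFX and control samples therefore chose them, and their fold changes with WT ARGFX are given only as a description. Tests of LEUTX or mutant ARGFX against control reuse these control samples, so their p-values are not independent of the choice. The cells were primary bovine fetal fibroblasts (BFFs) grown from the torso skin of 1 fetus of 6 months and used at passage 4. All groups were electroporated with a plasmid that carries the CMV promoter and puromycin resistance, were selected with 4 μg/ml puromycin, and gave RNA after 72 h. The plasmid was empty in the control group (n = 4), and carried ARGFX with its intact homeodomain in the WT ARGFX group (n = 4), LEUTX in the LEUTX group (n = 4) or an ARGFX allele truncated before the homeodomain in the mutant ARGFX group (n = 3). Each inserted gene had a FLAG tag. A further mutant ARGFX sample, which the authors removed because it grouped with the WT ARGFX samples, was not analysed here. The samples are separate transfections of cells from the same fetus, so p-values measure the spread between cultures and not between animals.

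APOA1 encodes apolipoprotein A-I, the main protein of high density lipoprotein, which takes up cholesterol from cells and activates the enzyme LCAT. It is made mainly by liver and intestine. C8G encodes the gamma chain of complement component C8, a small protein of the lipocalin family that is bound to the C8 alpha chain in plasma. C8 is part of the membrane attack complex, the pore that complement builds in target membranes, and hepatocytes are its main source. Neither gene is a typical product of dermal fibroblasts. ARGFX and LEUTX are transcription factor genes of the preimplantation embryo and are normally silent in these cells.

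Total expected counts (reads assigned to genes by pseudoalignment) ranged from 25947911 to 28163565 in the control samples, from 31359218 to 35178524 with WT ARGFX, from 28519622 to 41554242 with mutant ARGFX and from 26917853 to 35454192 with LEUTX. Levels are given as CPM (counts scaled to a common library total) after TMM normalization, which corrects for differences in library composition. They are not corrected for gene length, so APOA1 and C8G levels are not compared with each other. ARGFX and LEUTX RNA were present in the groups transfected with these genes. The table counts both ARGFX alleles in the same row, so it does not tell WT from mutant ARGFX. Mean ARGFX levels were 3455 ± 703 CPM with WT ARGFX (SD, n = 4) and 5409 ± 1744 CPM with mutant ARGFX (SD, n = 3), and the mean LEUTX level after LEUTX transfection was 1533 ± 209 CPM (SD, n = 4). No control sample had more than 1 count of either gene. A few LEUTX counts were found in the mutant ARGFX samples (7.19, 11.29 and 1.03 in replicates 1 to 3) and in the WT ARGFX samples (at most 2.55), and LEUTX replicate 2 held 5.67 ARGFX counts. The part of these counts in the results was not tested. The fibroblast label was checked on 6 of 12 marker genes. They could be located only because they are on the study's list of genes upregulated by WT ARGFX, which was the source of symbols, so they are not a free choice of markers. In the control samples COL1A1 and COL1A2, the chains of type I collagen, averaged 12030 and 11940 CPM, and COL3A1, FN1, FBN1 and POSTN averaged from 442 to 2775 CPM. The lists of hepatocyte and enterocyte markers had no gene with a known identifier and were not analysed here.

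A WT ARGFX library stood apart from its group, and the other groups were not uniform. A pair of WT ARGFX columns share a header and cannot be tied to a replicate number, and they are called samples A and B here. Sample B differed from the other WT ARGFX samples by a chi-square of 107 to 129 per degree of freedom over genes, against 6.22 to 8.54 among the other 3. Pairs of control samples differed by 21.5 to 95.7. Sample B had 15591 genes with a count, and the other WT ARGFX samples had 15978 to 16079. For APOA1 and C8G, the mean level with WT ARGFX and its fold change over control are given with and without it.

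APOA1 was nearly silent in the control cells. The 4 control samples held 12, 14, 15 and 16 reads of APOA1, which is 0.428, 0.506, 0.515 and 0.610 CPM. These counts are small, and the exact Poisson 95% interval for the lowest runs from 6.20 to 21.0 reads and for the highest from 9.15 to 26.0. Such intervals cover counting error only. The coefficient of variation between control samples, 14.5%, was below the 26.5% that counting alone would give at this depth. In the control group 8.0% of the 14264 genes that passed edgeR's filter on low counts had a lower mean CPM. C8G was already expressed, at 9.41, 11.9, 9.99 and 11.9 CPM from 264 to 329 reads, and 40.3% of the tested genes had a lower mean.

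With LEUTX, APOA1 rose from the edge of detection to a low but clear level. The 4 LEUTX samples had 5.85, 5.74, 7.12 and 8.25 CPM, from 155 to 245 reads. Every one of them lay above every control sample, as was the case for 20.5% of the tested genes in this comparison. The group means were 6.74 ± 1.18 CPM with LEUTX and 0.515 ± 0.075 CPM in control (SD, n = 4 each), a 13.0-fold increase (95% confidence interval 8.10 to 20.9). The log2 fold change was 3.70 (standard error 0.32, adjusted p = 7.97e-08, edgeR quasi-likelihood test with Benjamini-Hochberg adjustment over all tested genes). APOA1 was thus called upregulated, at an adjusted p-value under 0.05 and a fold change over 1.5, beside 12.8% of the tested genes. The control samples of this test also helped to choose APOA1. By comparison, 108 of the tested genes had a higher fold change with LEUTX. In bulk samples, fewer cells that express a gene and less RNA per cell cannot be told apart, which applies to all levels here.

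C8G also rose with LEUTX, by much less. The LEUTX samples had 15.2, 16.6, 15.1 and 14.02 CPM, and all of them exceeded the highest control sample. Of the tested genes, 20.5% had every LEUTX sample above every control sample. The mean was 15.2 ± 1.04 CPM against 10.8 ± 1.28 CPM in control (SD, n = 4 each), a 1.41-fold increase (95% confidence interval 1.204 to 1.65). The log2 fold change of 0.50 (standard error 0.11) passed the test (adjusted p = 0.00116, edgeR) but lay under the fold change threshold of 1.5, so C8G was not called. Since the control samples also helped to choose C8G, this p-value is not independent of the choice. With no fold change threshold 22.1% of the tested genes passed in this direction, and 2503 genes had a higher fold change than C8G.

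**Figure D1:**
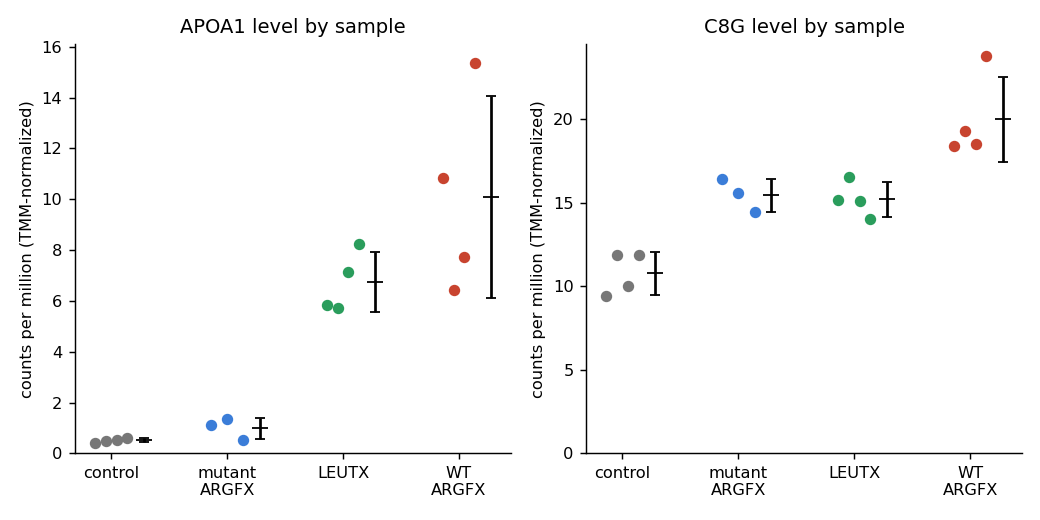
Level of APOA1 (left) and C8G (right) in each sample, in CPM after TMM normalization on linear axes that start at 0, by condition. Points are samples (n = 4, 3, 4 and 4 from left to right) and the bars beside them show the mean ± SD. APOA1 separates LEUTX from control (as do 20.5% of tested genes) and WT ARGFX from control (12.9%). WT ARGFX and control samples chose the genes. For C8G, mutant ARGFX and LEUTX lie together.

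With mutant ARGFX, C8G rose while APOA1 did not pass the test. For APOA1 the mutant ARGFX samples had 1.10, 1.35 and 0.542 CPM, from 34, 38 and 24 reads. Replicates 1 and 2 lay above all control samples and replicate 3 lay within their range, so the groups overlapped. The mean of 0.998 ± 0.414 CPM (SD, n = 3) was 1.87 times that of control (95% confidence interval 1.05 to 3.34), and the log2 fold change of 0.90 (standard error 0.40) did not pass the test (adjusted p = 0.161, edgeR). The coefficient of variation between mutant ARGFX samples was 41.5%, where counting alone gives 17.7%. Without replicate 3 the log2 fold change was 1.23 (adjusted p = 0.0887, edgeR), and without replicate 2 it was 0.63 (adjusted p = 0.42).

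C8G levels with mutant ARGFX were 16.4, 15.6 and 14.4 CPM, all above the control samples, as was the case for 11.6% of the tested genes in this comparison. The mean of 15.5 ± 0.99 CPM (SD, n = 3) was 1.43 times that of control (95% confidence interval 1.21 to 1.70). The log2 fold change was 0.52 (standard error 0.12, adjusted p = 0.00907, edgeR), which passed the test but again stayed under the fold change threshold. Here too the control samples had a part in choosing C8G. Of all tested genes, 4.26% passed upwards without that threshold and 1.26% with it, and 952 genes had a higher fold change than C8G. Without mutant ARGFX replicate 1 the adjusted p was 0.0504 at a log2 fold change of 0.48.

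The comparison of LEUTX with mutant ARGFX takes its means from none of the samples that chose the genes, although the spread was estimated over all 4 groups. APOA1 was 6.96-fold higher with LEUTX than with mutant ARGFX (95% confidence interval 4.33 to 11.2), which is 2.80 on the log2 scale with a standard error of 0.32 (adjusted p = 3.38e-06, edgeR). Fitted on the LEUTX and mutant ARGFX samples alone, the log2 fold change was 2.81 (adjusted p = 6.37e-06, edgeR). All 4 LEUTX samples exceeded all 3 mutant ARGFX samples, which 23.6% of the tested genes did. APOA1 was called, as were 10.3% of the tested genes in this direction and 22.4% in either, and 171 genes had a higher fold change. C8G did not differ beyond the spread between samples. Its log2 fold change was -0.02 (95% confidence interval -0.27 to 0.22, adjusted p = 0.891, edgeR), and the interval on the linear scale ran from 0.832-fold to 1.16-fold. Mutant ARGFX and LEUTX samples overlapped for C8G.

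The same differences were put to a two-sided exact permutation test on log2 CPM, which assumes no model, in 6 tests. Against control, LEUTX gave p = 0.0286 for APOA1 and p = 0.0286 for C8G, the smallest that 4 against 4 samples allow in this exact test. With mutant ARGFX against control the exact p was 0.114 for APOA1 and 0.0571 for C8G. LEUTX against mutant ARGFX gave an exact p of 0.0571 for APOA1 and 0.743 for C8G. The smallest exact p that 3 against 4 samples allow is 0.0571, so no comparison with the mutant ARGFX group can reach 0.05 this way. After Benjamini-Hochberg adjustment over the 6 exact tests, the lowest value was 0.0856. Comparisons with control share the control samples with the contrast that chose the genes.

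WT ARGFX gave the highest mean of both genes, which is a description since these samples chose them. APOA1 was at 10.8 and 6.44 CPM in replicates 1 and 2, 7.75 CPM in sample A and 15.4 CPM in sample B. The mean was 10.1 ± 3.96 CPM (SD, n = 4), and the log2 fold change against control was 4.28, or 19.5-fold. Without sample B the mean was 8.33 ± 2.25 CPM (SD, n = 3) and the log2 fold change 4.00. C8G was at 18.4, 19.3, 18.5 and, in sample B, 23.8 CPM, with a mean of 20 ± 2.56 CPM (SD, n = 4), or 18.7 ± 0.47 CPM without sample B (SD, n = 3). Its log2 fold change against control was 0.89 with sample B and 0.79 without it. Sample B was thus the highest for both genes, and the coefficient of variation between WT ARGFX samples was 39.3% with it and 27.0% without it for APOA1, and 12.8% and 2.52% for C8G. For both genes every WT ARGFX sample exceeded every control sample, as did 12.9% of the tested genes, and every mutant ARGFX sample, as did 6.57%.

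For APOA1 the means ran from control through mutant ARGFX and LEUTX to WT ARGFX. The samples of control and mutant ARGFX overlapped, and so did those of LEUTX and WT ARGFX, whereas the lowest LEUTX sample (5.74 CPM) was far above the highest mutant ARGFX sample (1.35 CPM). For C8G the control samples were lowest, LEUTX and mutant ARGFX overlapped, and the lowest WT ARGFX sample (18.4 CPM) was above the highest sample of any other group (16.6 CPM, with LEUTX). Of all tested genes, 19.6% had every WT ARGFX sample above every LEUTX sample, and since WT ARGFX samples chose the genes this separation is a description. Relative to WT ARGFX, the log2 fold change with LEUTX was -0.58 for APOA1 and -0.40 for C8G. Without sample B these values were -0.28 for both genes. With mutant ARGFX, the increase of APOA1 in mean CPM over control was 5.05% of that with WT ARGFX, against 50.8% for C8G. With LEUTX these shares were 65.0% for APOA1 and 47.9% for C8G. Without sample B the shares were 6.18% and 58.9% with mutant ARGFX and 79.6% and 55.6% with LEUTX. These shares are not tested, as WT ARGFX samples enter each of them. The APOA1 share with mutant ARGFX also rests on an increase that did not pass the test (adjusted p = 0.161, edgeR). On leaving out 1 sample, the log2 fold change of that increase lay between 0.63 and 1.23, so the share is uncertain.

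**Figure D2:**
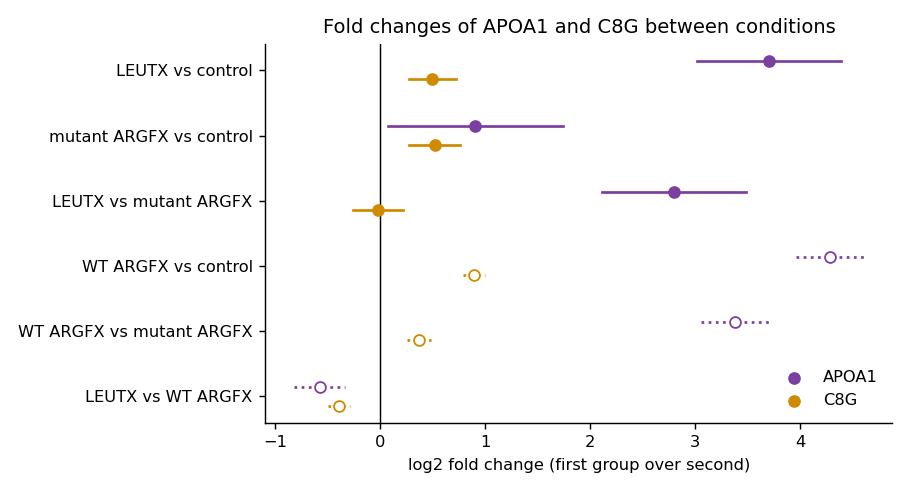
Log2 fold change of APOA1 and C8G for each pair of conditions, the first named over the second. Filled points have solid lines for 95% confidence intervals; open points with dotted lines (± standard error) are comparisons with WT ARGFX samples, which chose the genes and are not tested. APOA1 spans -0.58 to 4.28 and C8G -0.40 to 0.89.

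The level of the transfected RNA can be read beside the response. Mutant ARGFX replicate 3 had the lowest ARGFX level of its group, 3408 CPM against 6212 and 6606 CPM, and also the lowest APOA1 (0.542 CPM) and C8G (14.4 CPM). Among WT ARGFX samples, ARGFX was highest in replicate 1 (4506 CPM against 3039 to 3175 in the others), where APOA1 ranked next to the highest and C8G was the lowest. Among LEUTX samples the LEUTX level was highest in replicate 3 (1781 CPM), APOA1 was highest in replicate 4 and C8G in replicate 2. The part of the transgene level in the spread was not tested.

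**Figure D3:**
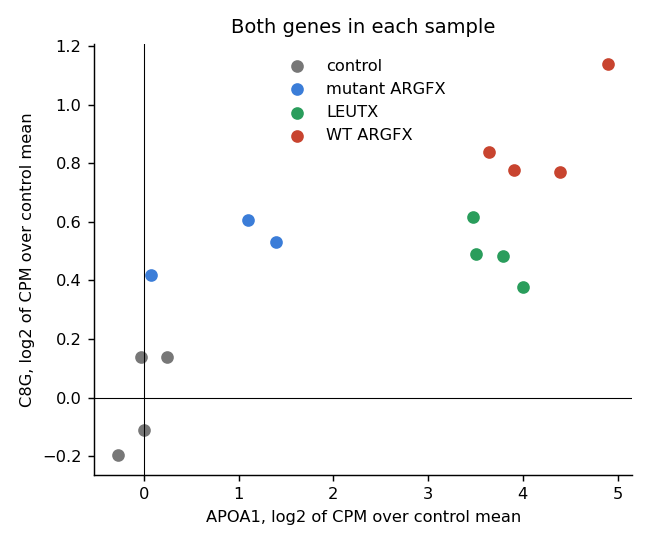
APOA1 (horizontal axis) and C8G (vertical axis) in each of the 15 samples, as log2 of the CPM over the mean of the control samples. LEUTX and WT ARGFX samples together span 3.48 to 4.90 for APOA1. In C8G the LEUTX samples reach 0.62 and the WT ARGFX samples, which chose the genes, start at 0.77 (as do 19.6% of tested genes, which separate this way). Mutant ARGFX overlaps LEUTX in C8G but not in APOA1 (23.6% of tested genes have every LEUTX sample above every mutant ARGFX sample).

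The scatter within groups also differed between the genes. With LEUTX the coefficient of variation was 17.6% for APOA1, where counting alone gives 7.04%, and 6.81% for C8G, where counting gives 4.70%. For C8G with mutant ARGFX it was 6.40%, against 4.35% from counting. The biological coefficient of variation that the edgeR fit used was 17.4% for APOA1 and 13.6% for C8G, against 14.9% over all tested genes together. These fit values follow a trend over genes by expression level and do not measure the scatter of each gene by itself. In the control group the coefficient of variation between samples was 14.5% for APOA1 and 11.8% for C8G. Counting alone gives 26.5% and 5.79% there. APOA1 thus had the wider relative spread in all 4 groups, though in control its spread was no more than counting alone gives.

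Set against all tested genes, the fold changes of the 2 genes took different places. The median log2 fold change over all genes was -0.03 with LEUTX, 0.01 with mutant ARGFX and -0.03 between LEUTX and mutant ARGFX. APOA1 had a higher fold change than 99.2% of genes with LEUTX and 98.4% with mutant ARGFX. The place with mutant ARGFX rests on low counts and on a change that did not pass the test (adjusted p = 0.161, edgeR). C8G exceeded 82.5% with LEUTX and 93.3% with mutant ARGFX. The higher place of C8G with mutant ARGFX came with nearly the same fold change, since fewer genes moved far in that comparison: 3.83% of tested genes were called with mutant ARGFX in either direction, and 26.8% with LEUTX.

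**Figure D4:**
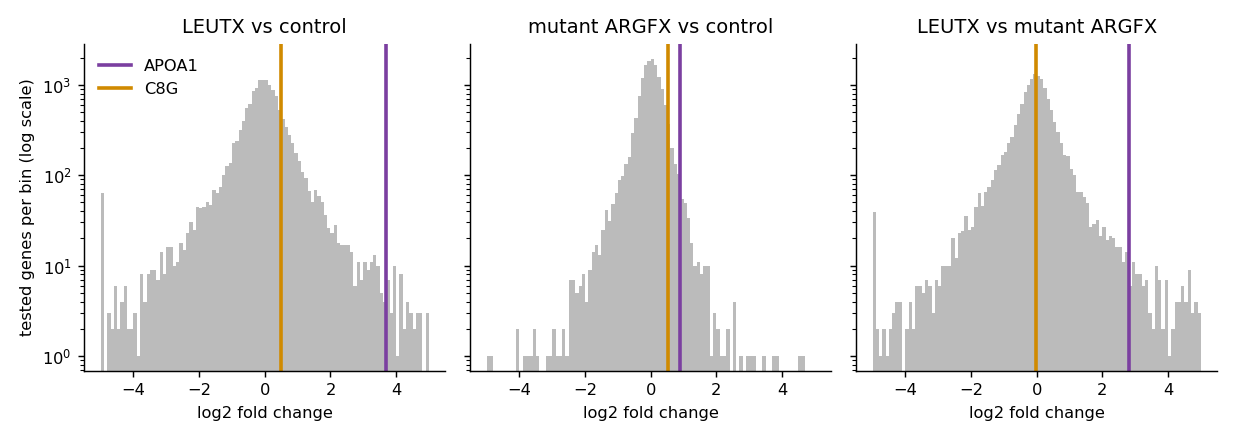
Distribution of log2 fold changes over the 14264 tested genes in bins of 0.1 (vertical axis logarithmic; values beyond ±5 are counted in the outermost bins), with APOA1 and C8G marked by lines, for LEUTX against control, mutant ARGFX against control and LEUTX against mutant ARGFX. APOA1 lies at 3.70, 0.90 and 2.80 and C8G at 0.50, 0.52 and -0.02.

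The genes whose profile over the 15 samples was most like that of each gene were found by Pearson's coefficient on log2 CPM. The samples form 4 groups, so this measures likeness of the group pattern and carries no test. For APOA1 the closest of all tested genes were IL1RL1 (0.97), the receptor of interleukin 33, and PDLIM2 (0.96), a PDZ and LIM domain protein. Among genes with a symbol LMCD1 followed at 0.96 and SCRN1 at 0.92, with C23H6orf141 (0.93) between them. IL1RL1 averaged 99.3 CPM in control, 105 with mutant ARGFX, 217 with LEUTX and 218 with WT ARGFX. For C8G the closest were ENSBTAG00000002391.5 (0.96) and PYCR1 (0.95), an enzyme of proline synthesis. PYCR1 averaged 39.3 CPM in control, 56.1 with mutant ARGFX, 59.6 with LEUTX and 72.0 with WT ARGFX, so that mutant ARGFX and LEUTX lay between control and WT ARGFX as for C8G. HTATIP2 (0.94), TTC7A (0.93), SFXN3 (0.92), a mitochondrial carrier, and PDK1 (0.92), a kinase that inhibits pyruvate dehydrogenase, came next among genes with a symbol. The genes with a symbol all come from the study's list of genes raised by WT ARGFX. Between APOA1 and C8G the coefficient was 0.80. C8G ranked 261 among the genes most like APOA1, and APOA1 ranked 262 among those most like C8G. These ranks were 666 and 394 without sample B. With sample B left out, IL1RL1 (0.98) and PDLIM2 (0.96) were still the closest to APOA1, whereas PYCR1 (0.93) ranked 5 for C8G and the coefficient between APOA1 and C8G was 0.76.

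Other plasma protein genes could not be placed. Of the lists of high density lipoprotein genes, complement genes and lipocalins, only APOA1 and C8G had an identifier with a symbol, and none of the known regulators of APOA1 had one. In the RefSeq annotation of assembly ARS-UCD2.0, the nearest protein-coding genes beside APOA1 that do not overlap it are APOC3 and SIK3, and its span overlaps those of APOA4 and LOC107133155. C8G lies between FBXW5 and LCN12, a gene for another lipocalin, and overlaps no gene. The counts were made on the transcripts of an earlier assembly, and pseudoalignment could split reads between overlapping transcripts, so the APOA1 level is uncertain to that extent. In the deposited table all 30 values of APOA1 and C8G were whole numbers (tolerance 1e-09), against 93.1% of all values.

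Other genes of the study's WT ARGFX list give a setting for the 2 genes, with the reservation that this list was chosen on these WT ARGFX and control samples and is no independent evidence of direction. Here, a list of 21 other genes for secreted proteins, collagens, MMP3 and MMP12 apart, was taken from 220 rows of the study's list. The paper counts more genes upregulated by WT ARGFX than these rows. With LEUTX, 7 of the 21 were called higher, 3 lower and 11 were not called, with a median log2 fold change of 0.33. The largest changes were in CALCB, a calcitonin gene-related peptide (6.39), SERPINE2, an inhibitor of serine proteases (3.17), and the semaphorin SEMA3E (2.20). The log2 fold change of APOA1 with LEUTX lay between those of CALCB and SERPINE2. With mutant ARGFX, 6 of the 21 were called higher and none lower, with a median of 0.50, where C8G had 0.52. Between LEUTX and mutant ARGFX, 4 of the 21 were called higher with LEUTX and 6 lower, with a median of -0.17. Across all tested genes, 12.8% were called higher and 14% lower with LEUTX, and 1.26% higher and 2.57% lower with mutant ARGFX. Between LEUTX and mutant ARGFX these shares were 10.3% and 12.1%.

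Enzymes of metabolism formed the other list, of 17 genes, and their abundance in liver was not checked. They too were taken from the study's WT ARGFX list and so were chosen on these WT ARGFX and control samples. The shares over all tested genes, which were not chosen this way, are therefore no like-for-like measure for them. With LEUTX 13 were called higher and none lower (12.8% and 14% of all tested genes), at a median log2 fold change of 0.88, above that of C8G and below that of APOA1. EPHX1, an epoxide hydrolase of detoxification, rose by 2.28, ACY1, which releases amino acids from their acetylated forms, by 2.19 and the quinone reductase NQO1 by 2.08 on the log2 scale. With mutant ARGFX 7 of the 17 were called higher and none lower (1.26% and 2.57% of all tested genes), at a median of 0.52. Between LEUTX and mutant ARGFX 7 were called higher with LEUTX and 2 lower (10.3% and 12.1% of all tested genes). Of the 6 fibroblast markers, all from the same WT ARGFX list, of which FN1, POSTN and FBN1 are also among the 21 secreted protein genes, 1 was called higher and 2 lower with LEUTX (12.8% and 14% of all tested genes), with log2 fold changes of 1.56 for FN1, -0.67 for POSTN and -0.61 for COL3A1, and 2 were called higher with mutant ARGFX (1.26% of all tested genes). Between LEUTX and mutant ARGFX, none of the 6 was called higher and 3 lower with LEUTX (10.3% and 12.1% of all tested genes). These were COL3A1 (-1.225), FBN1 (-0.959) and POSTN (-0.836), and the median log2 fold change of the 6 was -0.465. The part of these shifts in the APOA1 and C8G results was not tested.

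**Figure D5:**
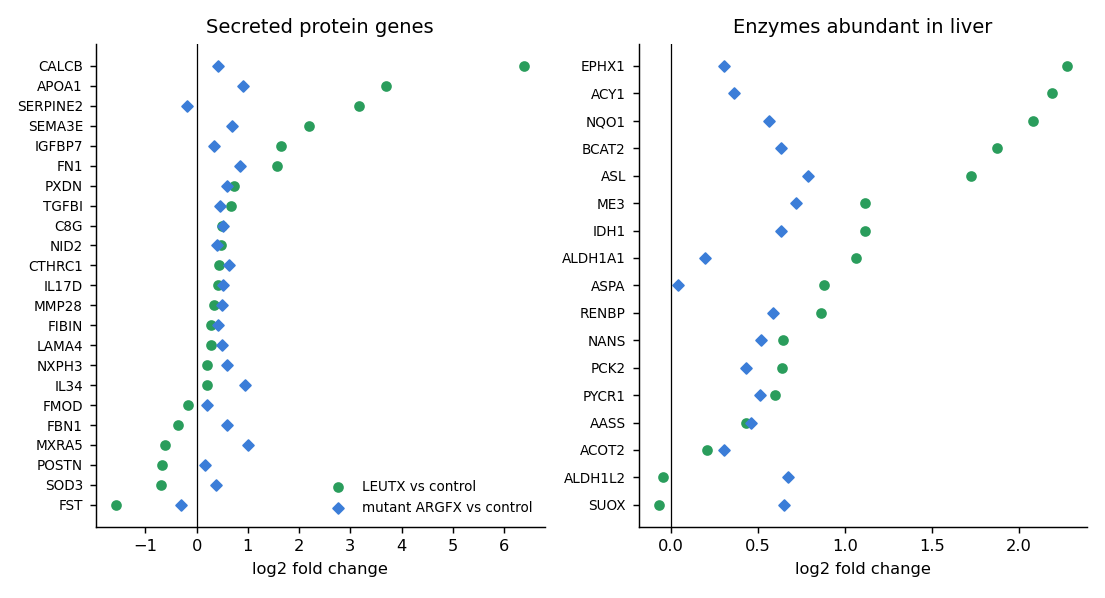
Log2 fold changes against control with LEUTX (circles) and mutant ARGFX (diamonds), each panel ordered by the LEUTX value. The left panel has APOA1, C8G and 21 other secreted protein genes, and the right panel 17 enzymes of metabolism. APOA1 has the next to highest LEUTX value of the secreted protein genes, and C8G has both symbols close together at about 0.5.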

How the data were processed

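The authors trimmed the reads with Trimmomatic, pseudoaligned them with kallisto 0.46.1 to ARS-UCD1.2 transcripts with ETCHbox (homeobox) sequences added, and used tximport for gene-level values. The deposited values are thus expected counts, with 1 column for each of 15 samples, and were rounded to whole numbers here. No column was left unused (0 columns). Groups and replicate numbers come from the sample titles. Column headers matched them except for a pair of WT ARGFX columns under the same header, which have a group but no number.

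All 14264 genes that passed filterByExpr were fitted in 1 model of 4 groups with edgeR 4.0.16 (TMM, quasi-likelihood test, Benjamini-Hochberg adjustment) in R 4.3.3. The study itself used DESeq2 and required a mean TPM over 2, which counts without lengths do not give; DESeq2 1.42.0 and a mean CPM over 5 were alternatives. Standard errors are the absolute log2 fold change divided by the square root of F. Levels used log2 CPM with a prior count of 2 for likeness and exact tests. On simulated counts for LEUTX against control over 14264 genes, 97.0% of 200 genes changed 2-fold were recovered, with 2 false calls. The simulation gave all genes the same dispersion, changed only genes above a minimum mean count and held no library apart from its group. It thus checks the procedure and does not give the error rates in these data.

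The 2 genes and all lists were chosen with earlier results of these data known. Genes named are APOA1, C8G, the transfected genes, for each of APOA1 and C8G the 5 most alike genes with a symbol and the 2 most alike of all, and 3 genes of each list by size of change with LEUTX. The remaining fibroblast markers that were located and the genomic neighbours are named in addition, outside this rule. Symbols came from 220 rows of the study's list of genes upregulated by WT ARGFX. They covered 43 of the 132 symbols in the lists (high density lipoprotein, complement, lipocalins, regulators of APOA1, secreted proteins, enzymes, and fibroblast, hepatocyte and enterocyte markers). A planned search of promoters was not run. Replicates all differed by more than sampling noise (lowest chi-square per degree of freedom 6.22).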

Additional observations from a re-analysis of the deposited data

Results flagged for a closer look

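C8G in WT ARGFX sample B, at 23.8 CPM against 18.4 to 19.3 CPM in the other WT ARGFX samples, lay farther from its neighbours than the 95% limit of Dixon's test allows. The gap was 0.841 of the group's range after TMM normalization. With CPM scaled by library size alone, an alternative added after seeing the data, it was 0.605 and within the limit. Of 6 groups of 4 samples examined this was the 1 past the limit, which chance passes in about 1 group of 20. APOA1 was also highest in sample B (15.4 CPM), without passing the limit.

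The effects of LEUTX and mutant ARGFX on APOA1 differed by 2.80 on the log2 scale (adjusted p = 3.38e-06, edgeR quasi-likelihood test), higher with LEUTX in 4 of 4 samples than in any of the 3 mutant ARGFX samples. For C8G the same test gave a log2 fold change of -0.02 (adjusted p = 0.891). Of all tested genes, 23.6% separated these groups as APOA1 did, and 10.3% were called higher with LEUTX.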

How the results depend on the processing

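Up to 25 other settings were applied to each fitted comparison (21 for those with WT ARGFX), 15 of which left out 1 sample, and 2 to each exact test. Where a value could be had, APOA1 stayed past the threshold with LEUTX (log2 fold change 3.60 to 3.79) and between LEUTX and mutant ARGFX (2.48 to 3.09), and did not pass with mutant ARGFX (0.63 to 1.23, adjusted p from 0.079 to 1). C8G with LEUTX ranged from 0.40 to 0.55. It no longer passed only when tested against a fold change of 1.5 with glmTreat (0.50 with LEUTX and 0.52 with mutant ARGFX, adjusted p = 1 for both). Leaving out 1 sample gave 0.46 to 0.57 for C8G with mutant ARGFX, which did not pass without mutant ARGFX replicate 1. The 3817, 546 and 3198 genes called with LEUTX, with mutant ARGFX and between LEUTX and mutant ARGFX became 2127, 83 and 1677 with glmTreat. Leaving out 1 sample gave 365 to 642 genes called with mutant ARGFX. The 180 of them called higher became 105 without mutant ARGFX replicate 3, 250 without control replicate 1 and 3 with glmTreat. A mean CPM over 5 left 2399 genes called with LEUTX and 2028 between LEUTX and mutant ARGFX, and leaves APOA1 (4.82 CPM over all samples) without a call.

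Deviations from the group means were on average unrelated between samples that share a replicate number (mean r 0.01 over 16 pairs, from -0.298 to 0.375). No pairing by number was thus seen, and batches that do not follow the number were not tested. With the number as a block over the 13 numbered samples, the log2 fold changes were 3.72 for APOA1 and 0.51 for C8G with LEUTX, 1.0 and 0.53 with mutant ARGFX, and 2.72 and -0.02 between them. Without the block over these samples, an alternative added after seeing the data, they were 3.72, 0.51, 0.90, 0.52, 2.81 and -0.01. The block changed no call. The shares and likeness without sample B were also added after seeing the data. The low APOA1 counts of the control samples limit its fold changes.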
